A study of Homo sapiens with 2 samples.

Results

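The HSP70 chaperone family was followed in the erythroleukemia line K562, human blood-derived cells that grow without attaching, after transfer of a mimic of the microRNA miR-34a. The family here is HSPA1A, HSPA1B, HSPA1L, HSPA2, HSPA4, HSPA5, HSPA6, HSPA8, HSPA9 and HSPA13. Its members were chosen by name and by the measured log2 ratio of these same arrays, on which HSPA1A and HSPA1B had stood out, so the ratios below are a description. A probe set, the group of short probes that reads 1 transcript, belonged to the family if the platform's annotation listed a member among its symbols. This gave 24 of 54613 probe sets other than controls, and all 10 genes had at least 1, of 21357 gene symbols in all.

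One culture received 3 µg of miR-34a mimic by nucleofection, an electrical transfer of nucleic acid, and the other 3 µg of a control mimic. The arrays, of Affymetrix make, read total RNA from 24 hours later. With 1 array for the control mimic and 1 for the miR-34a mimic, no value has an error between cultures, and no test between them was possible. Precision is limited by this number of arrays. Both cultures went through nucleofection and no untransfected culture was analysed here, so an effect of the transfer that both shared does not show in a ratio.

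HSP70 proteins bind stretches of unfolded protein and release them in a cycle driven by ATP. J-domain proteins start the cycle by delivering clients and triggering ATP hydrolysis, and nucleotide exchange factors end it by releasing ADP. HSPA1A, HSPA1B and HSPA6 are the heat-inducible forms, switched on by the heat shock factor HSF1. HSPA8 is the form present in the cytosol without stress, HSPA5 (BiP) works in the endoplasmic reticulum and HSPA9 (mortalin) in mitochondria. Erythroid cells depend on HSP70, which protects the transcription factor GATA1 from cleavage during maturation.

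The sequences shown first are the microRNA that was added and the promoters of the members on which the results turn. The mature miR-34a strand is given as listed in RefSeq (GRCh38.p14, chr1:9151735-9151756, minus strand), with its seed, bases 2 to 8, in capitals. The sequence of the commercial mimic itself is not given in the sources used here.
hsa-miR-34a-5p: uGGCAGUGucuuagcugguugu

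All 10 members had a promoter window in the RefSeq table of build GRCh38.p14, reaching from 250 bases before the start site to 50 bases after it. The windows of HSPA1A (chr6:31815293-31815592, plus strand) and HSPA1B (chr6:31827488-31827787, plus strand) are shown because the arrays read these genes together. Capitals mark a match to GAANNTTC, 1 of the forms of a heat shock element, the site that HSF1 binds.
HSPA1A: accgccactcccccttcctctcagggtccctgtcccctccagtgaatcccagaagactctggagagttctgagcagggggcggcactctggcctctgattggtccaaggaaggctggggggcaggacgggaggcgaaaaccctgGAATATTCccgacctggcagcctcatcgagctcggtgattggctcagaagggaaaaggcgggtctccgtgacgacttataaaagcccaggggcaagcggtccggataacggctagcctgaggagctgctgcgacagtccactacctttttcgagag
HSPA1B: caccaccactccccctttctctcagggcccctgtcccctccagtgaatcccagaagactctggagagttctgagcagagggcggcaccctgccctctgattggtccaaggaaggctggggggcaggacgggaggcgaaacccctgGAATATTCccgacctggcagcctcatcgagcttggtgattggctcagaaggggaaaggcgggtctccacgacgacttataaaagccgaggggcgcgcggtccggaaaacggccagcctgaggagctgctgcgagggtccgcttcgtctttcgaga

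These windows were identical at 277 of 299 aligned bases, or 92.6%. Each held 1 match to GAANNTTC, at -106 to -99 from the start site in HSPA1A and -105 to -98 in HSPA1B. HSPA1L lies next to HSPA1A in the RefSeq gene order and runs the other way. Its window shares 241 bases with that of HSPA1A, including the same match.

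The windows of HSPA6 (chr1:161524290-161524589, plus strand), the other inducible gene, and HSPA8 (chr11:123062087-123062386, minus strand), the constitutive gene, are shown for contrast. Capitals mark matches to GAANNTTC or to TTCNNGAA, the other form.
HSPA6: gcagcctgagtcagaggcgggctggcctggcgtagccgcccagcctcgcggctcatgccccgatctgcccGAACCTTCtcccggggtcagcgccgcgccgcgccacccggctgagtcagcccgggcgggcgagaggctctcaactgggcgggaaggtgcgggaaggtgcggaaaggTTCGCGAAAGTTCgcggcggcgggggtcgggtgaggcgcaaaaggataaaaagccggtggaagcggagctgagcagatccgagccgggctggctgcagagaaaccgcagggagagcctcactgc
HSPA8: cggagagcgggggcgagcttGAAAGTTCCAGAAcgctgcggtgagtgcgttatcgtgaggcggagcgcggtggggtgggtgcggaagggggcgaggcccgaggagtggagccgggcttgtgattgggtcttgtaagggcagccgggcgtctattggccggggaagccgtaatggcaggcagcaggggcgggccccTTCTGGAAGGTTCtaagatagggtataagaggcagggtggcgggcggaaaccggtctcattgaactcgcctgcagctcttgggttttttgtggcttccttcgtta

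HSPA6 held both forms overlapping at -74 to -62, and a further GAANNTTC at -180 to -173. HSPA8 held both forms overlapping at -230 to -218 and again at -55 to -43. The overlap spells TTCNNGAANNTTC or GAANNTTCNNGAA, 3 alternating units. Searched on both strands, such a run of 3 was in 0.490% of all 35116 windows of this length, and a match to either shorter form was in 13.5%. HSPA9 had 1 match to TTCNNGAA, across its start site, and HSPA2, HSPA4, HSPA5 and HSPA13 had no match of these letters in this window.

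The window of HSPA5 (chr9:125241294-125241593, minus strand) is shown because it held a different motif. Capitals mark a match to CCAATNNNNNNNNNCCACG, the endoplasmic reticulum stress element, at -66 to -48.
HSPA5: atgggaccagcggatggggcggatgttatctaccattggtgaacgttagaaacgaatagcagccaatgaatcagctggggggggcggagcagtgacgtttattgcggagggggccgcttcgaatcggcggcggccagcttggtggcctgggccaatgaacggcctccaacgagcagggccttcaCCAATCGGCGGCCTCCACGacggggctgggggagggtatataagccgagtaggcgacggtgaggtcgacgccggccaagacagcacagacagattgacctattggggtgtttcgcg

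That motif was in 27 of 35116 windows, or 0.0769%, and in no other member. A match describes letters in the window and was not tested as a binding site.

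**Figure D1:**
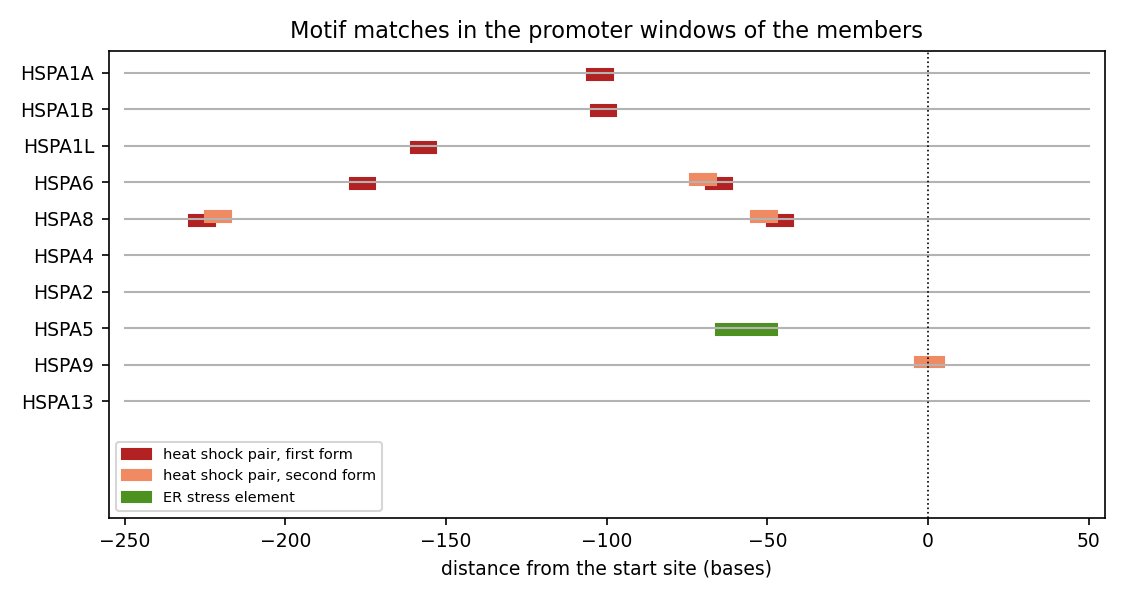
Positions of motif matches in the promoter windows of the 10 members, drawn to scale along the distance from the start site in bases. The first form of the heat shock pair is GAANNTTC and the second TTCNNGAA. HSPA1A, HSPA1B, HSPA1L and HSPA9 each carry 1 match, HSPA6 3 and HSPA8 4, and HSPA5 carries the stress element of the endoplasmic reticulum. Only these letters were searched, so imperfect units were not counted and the counts do not rank the promoters by heat shock elements.

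The only member probe sets at least 1.5-fold lower with miR-34a were those shared by HSPA1A and HSPA1B, which do not tell these genes apart. All 3 probe sets that read them were lower, by 0.70, 0.99 and 1.03 on the log2 scale, while no other member probe set past the filter passed 1.5-fold in either direction. HSPA6 was higher at 0.50 on its probe set above background, and the 0.53 of its other came from signals within background on both arrays. HSPA8, HSPA4 and HSPA5 had ratios close to 0, and HSPA9 was lower by about 0.3 on 3 probe sets. The log2 ratio is that of signal plus a pseudocount of 14.9, miR-34a less control, centred on the median of all probe sets past the filter, and it understates the change of dim probe sets. Each array reads RNA of a whole culture, so fewer cells with a transcript and less of it per cell cannot be told apart.

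Of the 24 member probe sets, 20 passed a filter on mean level over both arrays at a signal of about 39, and 4 did not. Of these 20, 3 were at least 1.5-fold lower and 1 was at least 2-fold lower, against 2.93% and 0.498% of all 27307 probe sets past the filter. At least 1.5-fold higher were 0 of the 20, against 3.23% of all. Because the members were chosen from this contrast, nothing is read from these shares. The members' median ratio was -0.015, beside 0 for all probe sets by centring. Apart from HSPA1A and HSPA1B, 9 of 17 member probe sets were lower and 8 higher, with a median of -0.0088, so the rest of the family lay on both sides of 0. Over all 20, 12 lay within 0.22 of 0, or 60.0%, beside 60.3% of all probe sets. This width is the SD of a probe set about the value shared by its gene, from the brightest 2 probe sets of each gene. Below it is called the spread between probe sets of a gene.

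Facts of the arrays that bear on these values were few. The deposited scales lay close together, since centring moved the log2 ratios by only 0.0051. After centring, the ratios of 18 probe sets for spiked-in RNA averaged 0.0093, and their SD was 0.068. As background, 27 dim probe sets for bacterial RNA were used, whose highest value was 75.4, and a signal at or below it is called within background. The 3′ to 5′ signal ratio of GAPDH, which grows as RNA degrades, was 3.07 on the control and 3.53 on the miR-34a array, and that of ACTB 4.30 and 4.54. Its part in the results was not tested. The 5 markers of K562 cells analysed here, GATA1, TAL1, KLF1, TFRC and EPOR, all exceeded background on at least 1 probe set. The T cell markers CD3E, CD2 and CD8A read within background on both arrays, while the B cell marker CD79A, at 330 and 342, and the stromal marker COL1A1, at 121 and 119, exceeded it. The other B cell marker, MS4A1, read 41.7 and 64.8, and the other stromal markers, COL3A1 and LUM, read 17.3 and 25.9, and 13.0 and 5.46, all within background.

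HSPA1A and HSPA1B encode nearly the same protein, and the annotation gives them no probe set of their own. The first shared probe set, 200799_at, was designed on an HSPA1A transcript and read 5595 with the control mimic and 3450.3 with miR-34a, a signal 1.62-fold lower. The second, 200800_s_at, which the annotation also assigns to HSPA1L, read 2551 and 1285, which is 1.99-fold lower. The third, 202581_at, was designed on an HSPA1B transcript and read 308 and 143, which is 2.15-fold lower. All of these signals were above background on both arrays, and the miR-34a array was the lower one each time.

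The percentile of the ratio among all 27307 probe sets was 1.73, 0.524 and 0.417 for these 3. Their mean was -0.91 with an SD of 0.18 over probe sets, beside the spread of 0.22 between probe sets of a gene, taken from 5494 genes. That SD covers differences between probe sets on the same arrays and not between cultures. Of 2716 gene symbols with 3 or more probe sets past the filter, 11 had all of them at least 1.5-fold lower, or 0.405%. HSPA1A and HSPA1B are 2 of those 11 through the same probe sets. Both genes had stood out on these same ratios, so the percentiles and this share restate that choice and lend it no support. The probe sets designed on HSPA1A and on HSPA1B were both lower, but cross-reading between genes this similar was not tested, and the share of each gene in the difference cannot be told apart.

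HSPA1L, a testis-enriched relative that is not heat-inducible, read within background on both probe sets of its own. Probe set 210189_at had 25.8 on the control and 24.6 on the miR-34a array, and 233694_at had 17.8 and 31.6. Neither gives a change, since both arrays lay inside background.

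HSPA6, a strictly inducible form that is nearly silent in unstressed cells, went the other way. Probe set 213418_at read 89.6 with the control mimic and 134 with miR-34a, both above background, a log2 ratio of 0.50. Probe set 117_at read 35.7 and 58.4, both within background, with a ratio of 0.53. The value rests on 1 probe set not far above background, and neither ratio passed 1.5-fold after the pseudocount, although the plain signal ratio of 117_at was 1.63. HSPA7 is a pseudogene very like HSPA6, and whether these probe sets also read it was not tested. Among member probe sets past the filter, the inducible class thus held the lowest and the highest ratios, the highest on 117_at, within background. Below the filter, 233694_at of HSPA1L had a ratio of 0.50, also within background.

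**Figure D2:**
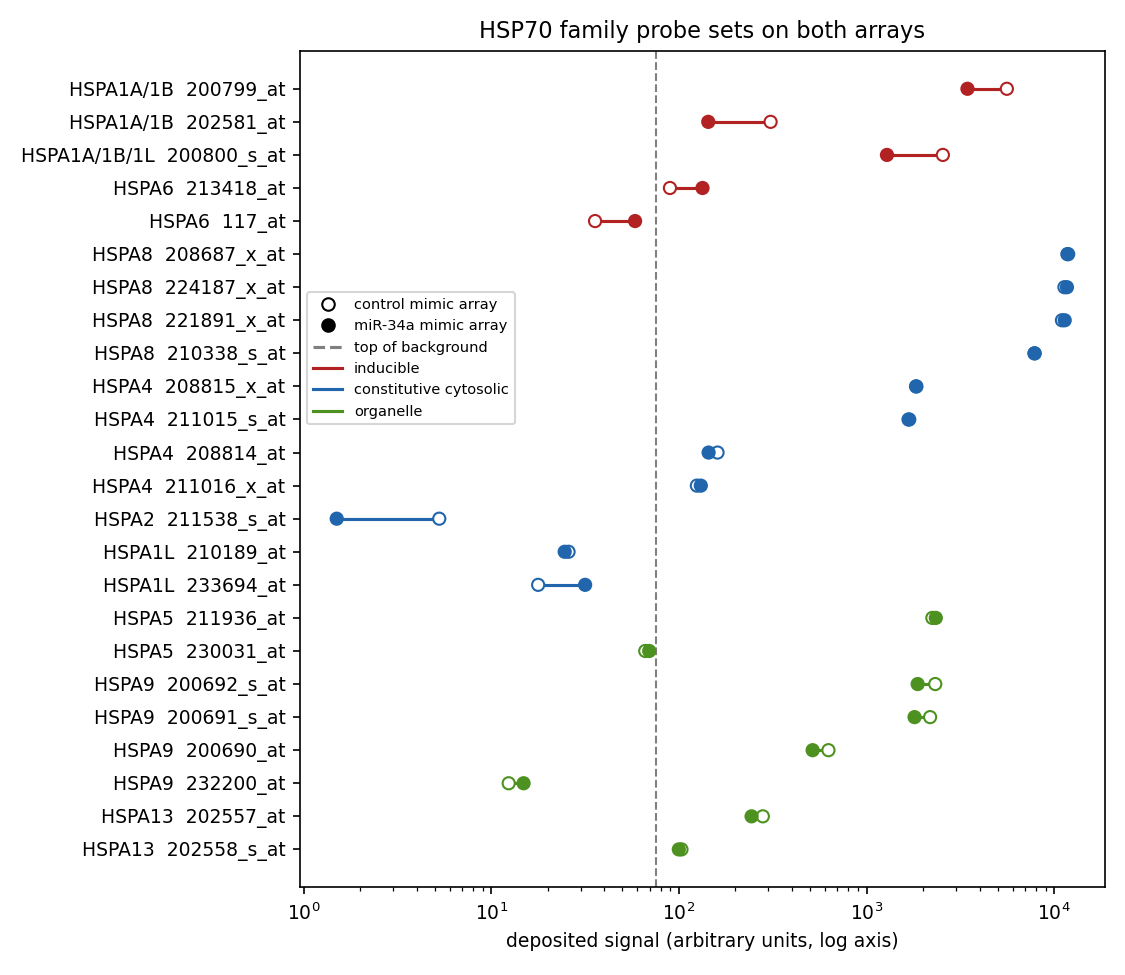
Deposited signals (arbitrary units, log axis) of all 24 member probe sets, open circles for the control mimic array and filled circles for the miR-34a mimic array, coloured by class, with the top of background at 75.4 as a dashed line. The filled circles of the 3 HSPA1A and HSPA1B probe sets lie to the left of the open ones, those of HSPA6 to the right, and those of HSPA8 nearly on top of them. The 3 probe sets of HSPA2 and HSPA1L lie left of the dashed line.

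HSPA8, the constitutive cytosolic form that also drives clathrin uncoating and chaperone-mediated autophagy, gave nearly equal signals on both arrays. Its 4 probe sets read 11758 and 11875, 11339.9 and 11695, 11000.4 and 11378.5, and 7869 and 7849 on the control and miR-34a array. The log2 ratios ran from -0.0088 to 0.044. The annotation lists SNORD14C and SNORD14D, small nucleolar RNAs encoded within its introns, for the same probe sets. The highest signal on the control array was 15627, and whether signals of this size were compressed was not tested.

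HSPA4, a member of the HSP110 branch that serves as an exchange factor for other HSP70 proteins, was likewise close to 0. The brighter probe sets, 208815_x_at and 211015_s_at, read 1844 and 1836, and 1689 and 1674, with ratios of -0.011 and -0.018. The dimmer ones had -0.15, from 161 to 144, and 0.057, from 125 to 131. All 4 lay within the spread of 0.22 between probe sets of a gene. HSPA2, known for its role in sperm development, read 5.28 and 1.5 on its probe set, far inside background, so it gives no change.

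All 8 constitutive cytosolic probe sets past the filter, 4 each of HSPA8 and HSPA4, lay within 0.22 of 0, with a median of 0.00018. None of the 5 inducible probe sets, 3 shared by HSPA1A and HSPA1B and 2 of HSPA6, lay in that range. Of all probe sets past the filter, at any level, 60.3% did. Probe sets of a gene are not independent, and the family was chosen from this contrast, so nothing is read from these shares.

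HSPA5, the chaperone of the endoplasmic reticulum whose transcript is a common readout of unfolded protein stress, read 2242 on the control and 2339 on the miR-34a array, a log2 ratio of 0.055. Its other probe set, 230031_at, read 66.2 and 69.4, within background on both, at 0.052. HSPA13, a small microsomal relative, had -0.19 on 202557_at, from 280.0 to 244, and -0.046 on 202558_s_at, from 103 to 99.9. These ratios were within the spread between probe sets.

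HSPA9, which pulls proteins into mitochondria and takes part in iron-sulfur cluster assembly, was lower on each of its 3 probe sets above background. They read 2324 and 1873, 2182 and 1802, and 627 and 516, with ratios of -0.31, -0.28 and -0.28. Their SD was 0.021, so the probe sets differed little among themselves, and each was between 1.21-fold and 1.24-fold lower in plain signal. The fourth, 232200_at, read 12.4 and 14.9, within background. Their percentiles among all probe sets were 12.1 to 14.8, well inside the general spread of ratios. The organelle class had a median of -0.19 over 7 probe sets, set by HSPA9 and HSPA13 and not by HSPA5.

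**Figure D3:**
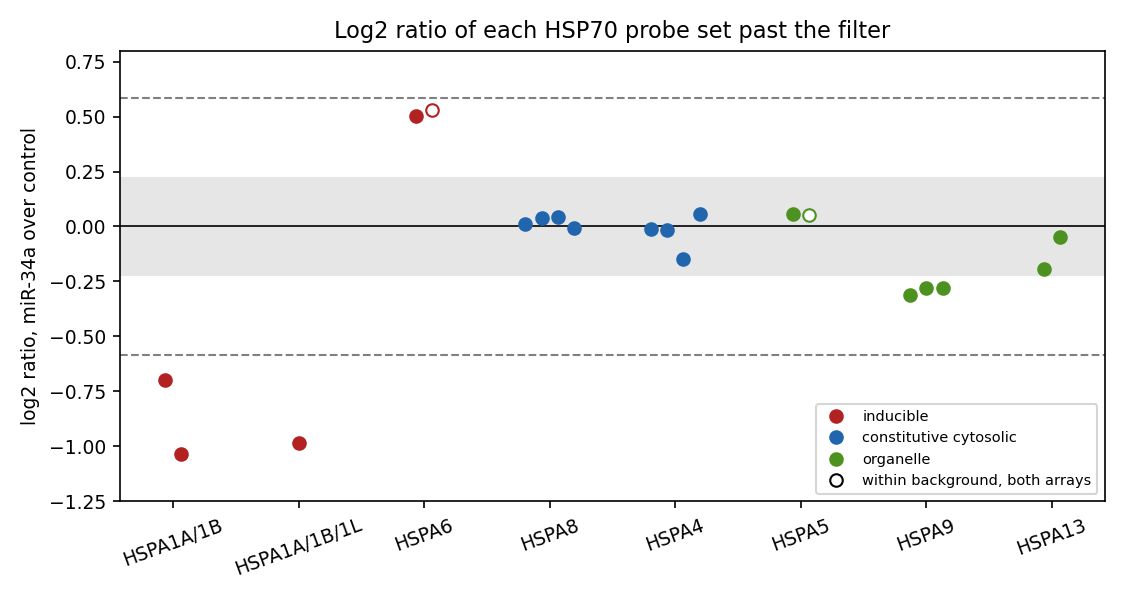
Log2 ratio of miR-34a over control for the 20 member probe sets past the filter, grouped by the member read and coloured by class. The dashed lines mark 1.5-fold, the grey band is the spread of 0.22 between probe sets of a gene, and open circles read within background on both arrays. The 3 probe sets of HSPA1A and HSPA1B lie below the lower dashed line, the HSPA6 points below the upper one, and HSPA8, HSPA4, HSPA5 and HSPA13 inside the band.

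**Figure D4:**
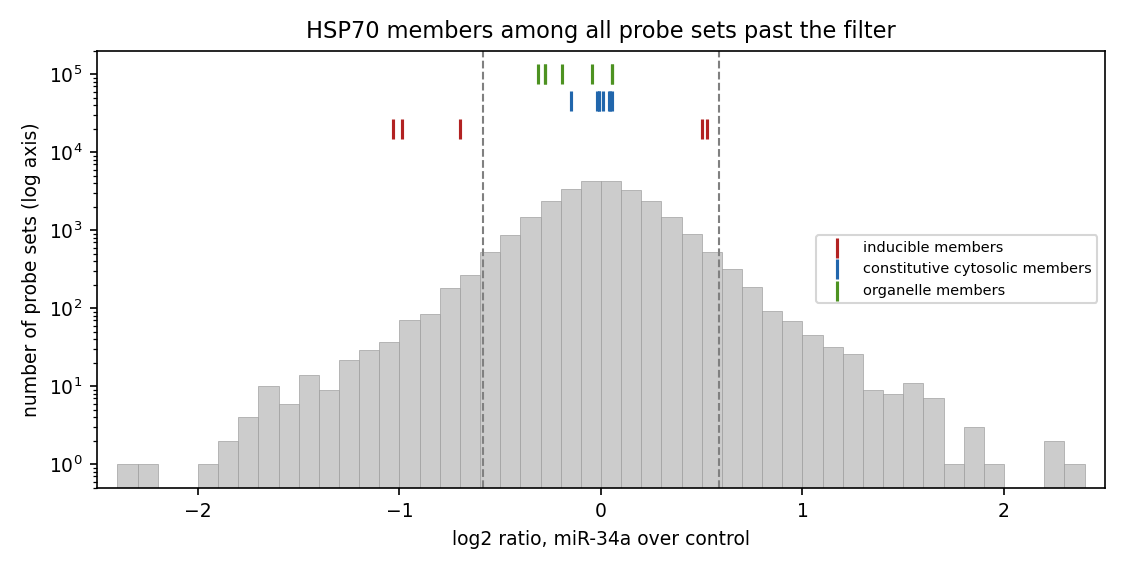
Number of probe sets past the filter (log axis) by log2 ratio of miR-34a over control in bins of 0.1, with the members as coloured ticks above, and dashed lines at 1.5-fold. A single probe set of the 27307 lies beyond the plotted range of 2.5 in size. The constitutive ticks sit over the centre, the organelle ticks from -0.31 to 0.055, and the inducible ticks on both flanks.

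The listed genes, which are HSP70 relatives and partners, heat shock factors and other heat shock chaperones, lay on both sides of 0. Of 66 listed genes, 61 had a probe set of their own past the filter, 36 of these were lower and 25 higher, and the median log2 ratio was -0.030, beside 0.0039 over all 12774 genes. At least 1.5-fold lower were 2, SGTA and SERPINH1, and at least 1.5-fold higher was 1, DNAJB4, against 2.94% and 3.32% of all genes. A gene takes the value of its brightest probe set here.

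Of 6 other listed members of the HSP70 superfamily, 5 passed the filter, and all 5 had ratios below 0. Over all genes, 6296 of 12774 were below 0. The median of the 5 was -0.27, and between -0.29 and -0.15 under other settings, and 0 passed 1.5-fold. HSPA4L, outside the rule for named genes, gave that median and had -0.018 on its other probe set. HYOU1, an exchange factor of the endoplasmic reticulum, read 1672 and 1379, at -0.28. HSPH1, the HSP110 chaperone induced by heat, had -0.050, with 0.051 on another probe set. HSPA14, which works at the ribosome, had -0.025, although another HSPA14 probe set gave -0.50. The values -0.050 and -0.025 lay within the spread of 0.22 between probe sets. HSPA12B had -0.40 with both signals within background. The brightest HSPH1 probe set read 1493 on the control and 1447 on the miR-34a array.

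The J-domain partners were spread on both sides. Of 24 listed, 23 passed the filter, 12 were lower and 11 higher, and the median was -0.015, which changed sign under other settings. DNAJB4, a partner of the cytosolic HSP70, went from 139 to 235 at 0.69, on a single probe set past the filter. DNAJC16 had 0.35. DNAJC10, a disulfide reductase that acts with HSPA5, had -0.41 and was lower on all 4 of its probe sets, down to -0.48. DNAJC19, which acts with HSPA9 at the mitochondrial import channel, went from 963 to 725 at -0.41, with its other probe set at -0.18. DNAJB1, the heat-inducible partner of HSPA1A, read 1318 and 1150.1, at -0.20, and 0.011 on its second probe set.

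Among 16 nucleotide exchange factors and other cochaperones, 9 were lower and 7 higher, with a median of -0.018 that changed sign under other settings. SGTA, which handles membrane proteins before their insertion, went from 1119 to 725 on its single probe set, at -0.62. BAG5 had -0.28, SIL1, the exchange factor for HSPA5, 0.41, and HSCB, which brings iron-sulfur scaffold protein to HSPA9, 0.21. BAG3, a further cochaperone, read 2459 and 2474, at 0.0037. DNAJB1 and BAG3 lie outside the rule for named genes and were picked after their values were seen.

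Of the heat shock factors and their regulators, 3 of 5 listed genes passed the filter. HSF1 itself read 486 and 529.7, a log2 ratio of 0.12 with 0.51 on its other probe set, HSBP1, a protein that binds heat shock factors, had 0.22 with -0.55 on its other, and HSF2BP -0.057 within background. Of 15 other heat shock chaperones 14 passed, 9 lower and 5 higher, with a median of -0.075. SERPINH1, the collagen chaperone HSP47 and a known heat shock gene, went from 252 to 161, at -0.61. CRYAB had -0.33 and HSPB8 0.20, each within background on both arrays, and HSP90B1, the HSP90 of the endoplasmic reticulum, 0.076 on the brighter of 2 probe sets of its own.

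**Figure D5:**
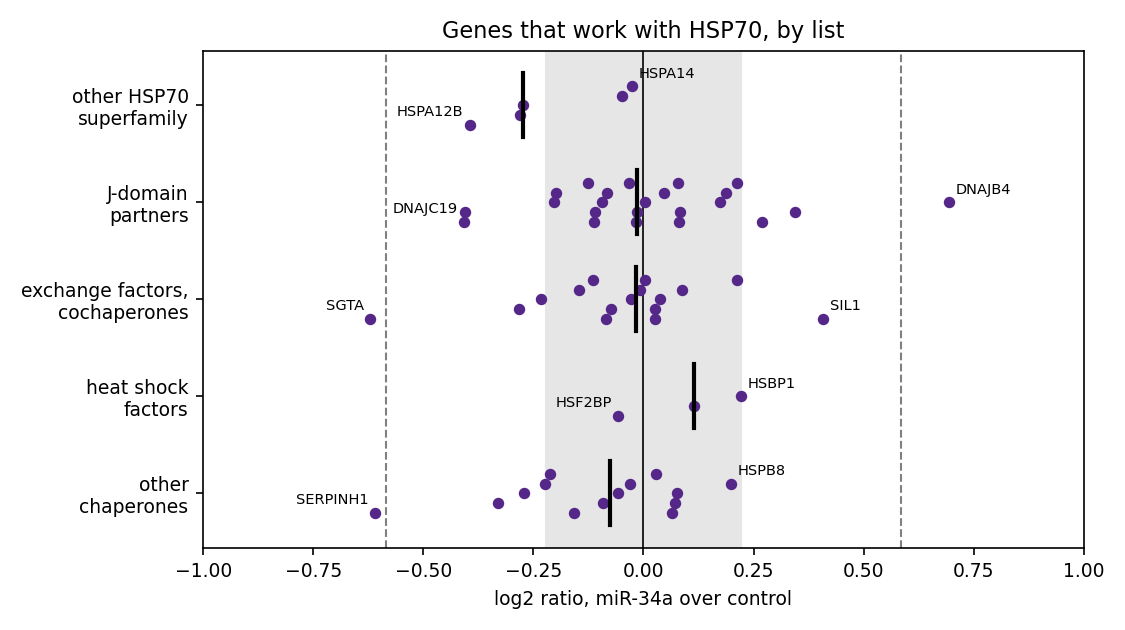
Log2 ratio of miR-34a over control for the 61 listed genes past the filter, 1 point a gene, by list, with a black bar at each median, the lowest and highest gene named, a grey band at the spread of 0.22 and dashed lines at 1.5-fold. Most points lie in or near the band, with SGTA and SERPINH1 past the lower line and DNAJB4 past the upper one.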

How the data were processed

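Total RNA of 1 culture per group was measured, and the authors deposited a linear intensity per probe set, with a floor of 1 that 3.59% of probe sets held on the control and 3.54% on the miR-34a array. Biotin labelling followed the Affymetrix protocol, per the labels' protocols. The software, its background correction and its scaling were not given in the sources used here.

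From the deposited intensity, log2 values were taken after adding 14.9, the 25th percentile over both arrays. The ratio was centred on its median, 0.0051, over 27307 probe sets at or above the median level. Of probe sets other than controls, 41091 had 1 symbol, 1801 several and 11721 none. Member probe sets include those with several symbols, 7 of 24, while listed genes use probe sets with 1 symbol. Named are all members, the 2 highest and 2 lowest genes of each list and those past 1.5-fold; genes named outside this rule are said to be. Some listed genes were not analysed here. The members, classes and lists were chosen with earlier results of these data known.

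With 1 array per group, sizes and counts are given and no test. The calculation was checked on simulated data, with 2-fold changes put into bright probe sets only. Dim probe sets and changes near 1.5-fold were not part of that check. Motifs were searched on both strands, and promoters were aligned with Biopython 1.88. Alternatives changed the pseudocount, centring, normalization, filter, probe set classes, fold and gene summary. Python 3.11.15, NumPy 2.4.6, pandas 2.3.3, statsmodels 0.14.6 and matplotlib 3.10.9 were used.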

Additional observations from a re-analysis of the deposited data

How the results depend on the processing

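Across 12 alternative settings, each applied where it bears on the value, the median of the probe sets shared by HSPA1A and HSPA1B lay between -1.0 and -0.86, that of HSPA6 between 0.34 and 0.63, and that of the organelle class between -0.26 and -0.071. Over member probe sets, 181 of 182 recomputed ratios stayed within 0.22 of their value. The exception was 117_at of HSPA6, at 0.30 with 4 times the pseudocount. Changing only the centring, the filter or the probe set classes moves every ratio by the same small amount. The amounts subtracted in centring ran from -0.0094 to 0.019, so those comparisons could not fail and nothing is read from them. Of 81 recomputed class medians and counts, 77 stayed within 0.22, or within 1.5 times for counts. With a pseudocount of 1 the number of member probe sets at least 1.5-fold higher was 1, and with a limit of 2-fold the number lower was 1. The inducible median was -0.97 with the filter at the 75th percentile, which drops both HSPA6 probe sets, and -0.0996 without the _s_at, _x_at and _a_at classes, which leaves 2 probe sets each for HSPA6 and for HSPA1A with HSPA1B. List medians moved by less than 0.22 in all 55 comparisons. That width is the spread of single probe sets and is wide for a median over several genes, so little is read from this count. The medians of the J-domain partners, the exchange factors and the heat shock factors changed sign, reaching 0.055, 0.027 and -0.058. No paired analysis was possible because each group held 1 array. Without replicates, no difference given here, large or small, has an error to be set against. HSPA1L and HSPA2 are also limited by signals within background.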

Other observations

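Probe sets of the same listed gene disagreed in several cases. DNAJB12, a J-domain protein of the endoplasmic reticulum membrane, lay between -0.36 and 0.70 over 4 probe sets, with -0.20 on the brightest. DNAJC1 lay between 0.047 and 0.49 over 3, and HSPD1 between -0.54 and -0.16 over 3. Which transcripts these probe sets read was not tested. All genes named here were picked after their values were seen. FKBP4, a cochaperone of HSP90, was lower on both of its probe sets past the filter, at -0.27 and -0.41. DNAJA2 was higher on both of its own, at 0.21 and 0.067. So was DNAJA4, at 0.27 on the brighter and 0.76, past 1.5-fold, on the dimmer.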
